A study of Mus musculus with 22 samples.

Results

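Cathepsins are the proteases of endosomes and lysosomes, and the transcripts of 10 such enzymes were followed here: cathepsins E, B, C, D, H, L, S, W and Z (Ctse, Ctsb, Ctsc, Ctsd, Ctsh, Ctsl, Ctss, Ctsw, Ctsz) and legumain (Lgmn). The family was chosen by the measured level of Ctse, which stood far higher in wild-type regulatory T cells (Treg) than in both groups of vector-transduced cells. The other 9 genes were named by family. All 10 are rows of a count table of 55011 genes, and all 10 were among the 15462 genes with enough reads to be tested. The levels of Ctse that led to the choice are therefore given as a description, without a test.

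The libraries come from CD4+ T cells recovered on day 50 of a cell transfer into scurfy mice, a strain whose Foxp3 gene is defective. FOXP3 cells were scurfy CD4+ T cells given a vector for human FOXP3 with the surface tag LNGFR. WT Treg cells were CD4+CD25+ cells with the CD45.1 allele. LNGFR cells were scurfy CD4+ T cells given a vector with LNGFR alone. All 3 groups were placed in scurfy recipients that had received cyclophosphamide (50 mg/kg) at 10 days of age. The cells went into the peritoneum on day 14. The mice then had human IL-2 (1000 IU/g) on each of 5 days and weekly after that. The labels give the strain C57BL/6 and the genotype "Scurfy - FOXP3 KO" for every library, those of WT Treg included. LNGFR+ or CD45.1 CD4+ cells were sorted from lymph nodes through 2 rounds, 1000 per Smart-seq library. Each title carries a code shared by 2 libraries. The libraries of a code were summed and counted as 1 replicate, which gave FOXP3 codes F1, F2, F5, N2 and N3, WT Treg codes E2, G4 and L1, and LNGFR codes G1, G2 and G3. Whether a code is an animal is not stated, so p-values measure the spread between codes, which may in part be technical. All LNGFR codes and 1 WT Treg code start with G, and the meaning of the letter is not stated.

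Cathepsins are made as inactive precursors and mature in acidic compartments, where they break down proteins. Cathepsins D and E are aspartic proteases. Cathepsins B, C, H, L, S, W and Z belong to the papain family of cysteine proteases, and legumain is a cysteine protease that cuts after asparagine and helps other cathepsins mature. In antigen-presenting cells cathepsins S and L trim the invariant chain of class II molecules, and in cytotoxic lymphocytes cathepsin C activates granzymes.

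Code totals were 8344444 to 10376164 counts in FOXP3, 1154626 to 7088371 in WT Treg and 3109515 to 7881352 in LNGFR. Code E2 of WT Treg stood apart, with 54.8% of its counts on repeat-derived gene models, against 2.51% to 6.55% in the other codes. Markers of B cells (10 genes, Cd79a and Ms4a1 among them) summed to 6669 CPM (counts scaled to 1e6 of the TMM-scaled total of a code) in FOXP3 code N3 and 1721 CPM in LNGFR code G1. The sums of the remaining codes were 179 to 749 CPM in FOXP3, 182 to 344 CPM in WT Treg and 644 to 694 CPM in LNGFR. No B cell marker summed to 0 in any group, though Fcrla was at 0 in 1 WT Treg code. T cell markers (7 genes, Cd3e and Cd4 among them) summed to 3025 to 4810 CPM in FOXP3, 2145 to 5192 CPM in WT Treg and 4484 to 5308 CPM in LNGFR. Mouse Foxp3 averaged 228 ± 54.3 CPM in FOXP3 (SD, n = 5), 1305 ± 521 CPM in WT Treg (n = 3) and 86.1 ± 51.5 CPM in LNGFR (n = 3). Because codes E2, G1 and N3 differ from the rest in these ways, the main results are also given without them. That fit kept codes G4 and L1 of WT Treg and G2 and G3 of LNGFR. Between FOXP3 and LNGFR it called 10.7% of all tested genes (adjusted p under 0.05 in edgeR), against 0.543% with all codes. The shares were 7.66% against 1.3% between WT Treg and LNGFR, and 7.42% against 0.259% between FOXP3 and WT Treg.

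**Figure D1:**
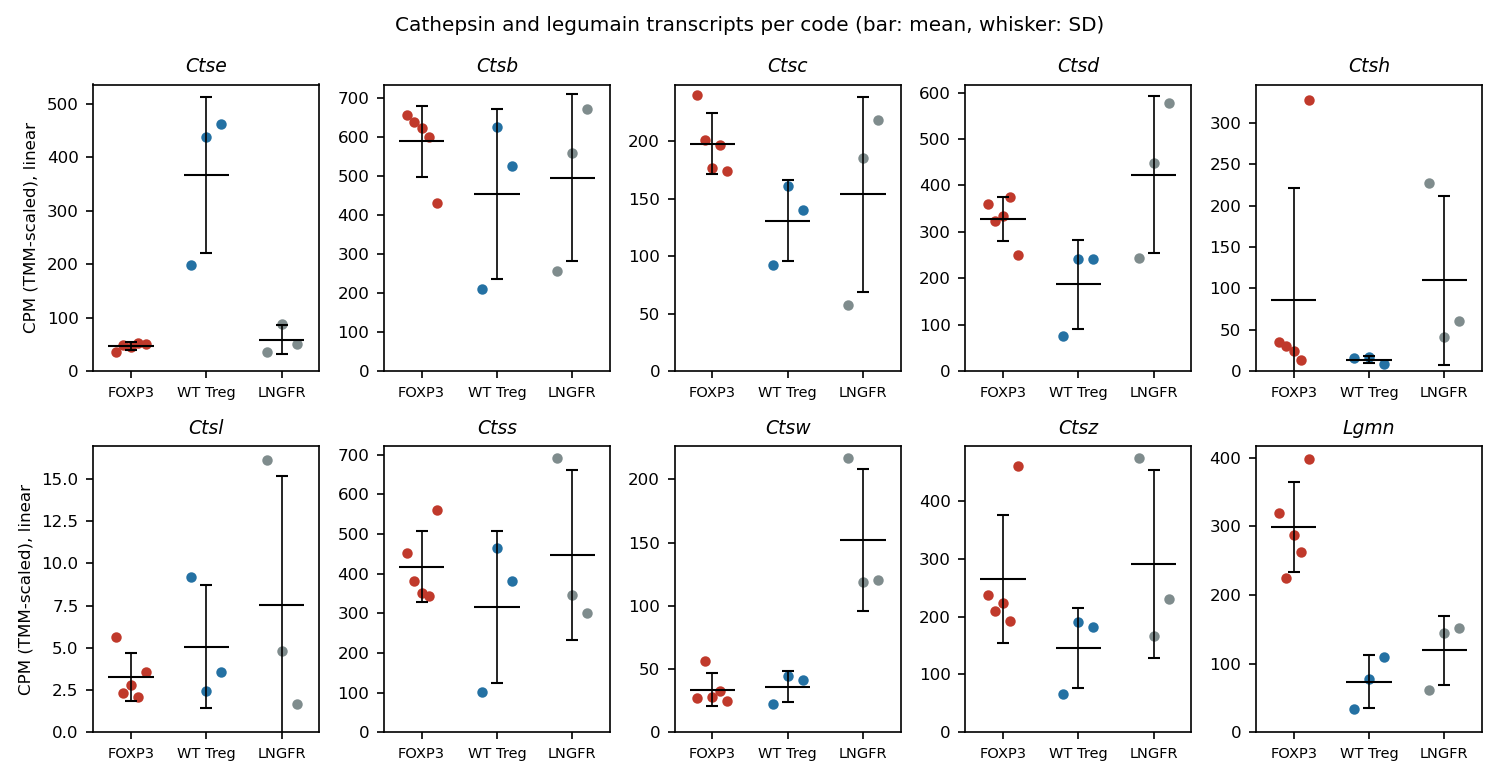
Level of each of the 10 transcripts in CPM on a linear axis, 1 point per code, with FOXP3 (red, n = 5), WT Treg (blue, n = 3) and LNGFR (grey, n = 3); bars are means and whiskers are SD, which run off the axis at 0 for Ctsh and Ctsl. Ctse lies at 199 to 463 CPM in WT Treg and under 100 CPM in all other codes, Lgmn is highest in FOXP3, and Ctsw is highest in LNGFR.

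Among the aspartic proteases, Ctse was far higher in WT Treg than in the other groups, while Ctsd was present at similar orders of level in all 3. Cathepsin E is an endosomal relative of the lysosomal cathepsin D. Its gene lies at chr1:131638306-131675505 on the plus strand (GRCm38, GENCODE M21). Ctse stood at 35.2, 49.1, 44.2, 52.8 and 51.1 CPM in FOXP3 codes F1, F2, F5, N2 and N3, at 199, 438 and 463 CPM in WT Treg codes E2, G4 and L1, and at 36.3, 88.7 and 50.7 CPM in LNGFR codes G1, G2 and G3. Every WT Treg code lay above every code of the other groups, and the lowest WT Treg value belonged to E2, whose 2 libraries gave 80 and 71 counts. The means were 46.5 ± 7.06 CPM in FOXP3, 367 ± 146 CPM in WT Treg and 58.6 ± 27.0 CPM in LNGFR (SD). Fold changes are given with the first-named group over the second. As a description, the log2 value of Ctse was 2.65 ± 0.41 (SE) between WT Treg and LNGFR and -2.98 ± 0.35 between FOXP3 and WT Treg. Without codes E2, G1 and N3 these values were 2.7 and -3.32, and among codes that start with G the first was 2.89 (1 WT Treg code against 3). FOXP3 and LNGFR codes overlapped. Their difference, which the choice of the family did not use, did not pass (log2 fold change -0.34 ± 0.35, edgeR adjusted p = 0.76 over all genes), and its sign depended on LNGFR code G2, without which it was 0.23.

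Ctsd, the main aspartic protease of the lysosome, lies at chr7:142375911-142388038 on the minus strand. It stood at 360, 322, 333, 374 and 251 CPM in the FOXP3 codes, at 76.3, 241 and 242 CPM in the WT Treg codes, and at 243, 448 and 578 CPM in the LNGFR codes. All WT Treg codes were below all FOXP3 and all LNGFR codes, narrowly so for G4 and L1. None of the differences passed the threshold in edgeR with all codes. The log2 fold changes were -0.37 ± 0.38 between FOXP3 and LNGFR (adjusted p = 0.76), -1.17 ± 0.44 between WT Treg and LNGFR (adjusted p = 0.25) and 0.80 ± 0.40 between FOXP3 and WT Treg (adjusted p = 0.35). With all codes, WT Treg against LNGFR passed in DESeq2 (-1.19, adjusted p = 0.038) and in limma voom (-1.12, 0.017). These tools called 4.86% and 5.63% of all tested genes in that comparison. Without codes E2, G1 and N3 all 3 passed in edgeR: -0.57 between FOXP3 and LNGFR (adjusted p = 0.0082), -1.08 between WT Treg and LNGFR (0.00047) and 0.52 between FOXP3 and WT Treg (0.023). In that fit 10.7%, 7.66% and 7.42% of all tested genes passed in these comparisons.

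Taken per kilobase of merged exons, Ctse made up 6.76% to 13.1% of the sum of Ctse and Ctsd in FOXP3 codes, 57.4% to 65.9% in WT Treg codes and 6.10% to 12.8% in LNGFR codes. E2 sat within 10 points of the other WT Treg codes on this measure, whereas its summed level of the other 9 members, 627 CPM, was far below the 1637 to 2632 CPM of the other 10 codes. The split between both aspartic proteases thus separated WT Treg from the rest in each of its codes, as a further description of the values that chose the family.

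Lgmn was highest in FOXP3 cells. Legumain lies at chr12:102394084-102439813 on the minus strand. It stood at 319, 225, 288, 262 and 399 CPM in the FOXP3 codes, at 34.2, 77.5 and 110 CPM in the WT Treg codes, and at 61.9, 145 and 153 CPM in the LNGFR codes. Every FOXP3 code was above every code of both other groups, and WT Treg and LNGFR overlapped. With all codes, the test did not pass between FOXP3 and LNGFR (log2 fold change 1.32 ± 0.41, adjusted p = 0.21), FOXP3 against WT Treg (1.99 ± 0.42, adjusted p = 0.071) or WT Treg against LNGFR (-0.67 ± 0.44, adjusted p = 0.48).

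The call for Lgmn depended on the test. FOXP3 against LNGFR passed in DESeq2 (adjusted p = 0.016), in limma voom (0.0201) and in edgeR without codes E2, G1 and N3 (0.0055), with a log2 fold change of 0.88 in the last. FOXP3 against WT Treg passed in 7 of the 9 alternatives other than leaving out a single code, and without LNGFR code G1 (adjusted p = 0.027). Over all 20 alternatives the log2 fold change was between 0.88 and 1.59 between FOXP3 and LNGFR and between 1.53 and 2.49 between FOXP3 and WT Treg.

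Promoter sequence was matched for 6 members in a RefSeq table (GRCm38.p6), as 7 windows of 250 bases before a start site: Ctsz, Ctss, Ctsc, Ctsd, Ctsl and a pair for Lgmn. Ctse, Ctsb, Ctsh and Ctsw had no entry. The letters CACGTG, a palindrome and therefore the same on both strands, form the core of the element bound by TFEB, a transcription factor of lysosomal genes. They were in 3 of the 7 windows, those of Ctsd (245 and 98 bases before the start), Ctsl (236 bases before it) and the second Lgmn window (49 bases before it). Of all 32851 windows in the table, 6.02% held them. The Ctsl window and the second Lgmn window lie inside the genes as annotated in GENCODE M21. Read 5′ to 3′, the Ctsd letters at 98 bases lie past the first annotated exon base, and those of Ctsl run across one. A forkhead motif, TGTTTAC on either strand, was in 0 of the 7 windows and in 3.17% of all. The stretches below are shown because Lgmn and Ctsd are the members whose FOXP3 codes all differed from all WT Treg codes and that have a window with the letters, and the first Lgmn window, which lacks them, stands beside the second. They are the parts of these windows outside annotated exons, 5′ to 3′ on the minus strand, with CACGTG in capitals, at chr7:142388039-142388077 for Ctsd, chr12:102439814-102439978 for the first Lgmn window and chr12:102439093-102439342 for the second. A match of letters is a description of sequence, and binding was not measured.
Ctsd: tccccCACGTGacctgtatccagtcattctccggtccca
Lgmn, first window: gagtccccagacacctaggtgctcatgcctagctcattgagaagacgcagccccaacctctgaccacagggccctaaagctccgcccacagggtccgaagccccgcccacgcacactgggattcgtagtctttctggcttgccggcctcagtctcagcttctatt
Lgmn, second window: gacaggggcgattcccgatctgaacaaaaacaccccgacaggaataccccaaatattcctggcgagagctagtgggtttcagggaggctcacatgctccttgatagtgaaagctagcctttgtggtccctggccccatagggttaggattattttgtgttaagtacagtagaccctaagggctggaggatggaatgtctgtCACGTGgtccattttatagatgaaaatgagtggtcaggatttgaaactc

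Ctsw was lower in both FOXP3 and WT Treg cells than in LNGFR cells. Cathepsin W is a papain-like protease known from natural killer and CD8 T cells, and its gene lies at chr19:5465043-5468507 on the minus strand. It stood at 27.4, 56.0, 28.3, 32.8 and 24.9 CPM in the FOXP3 codes, at 22.4, 44.6 and 41.4 CPM in the WT Treg codes, and at 217, 119 and 120 CPM in the LNGFR codes. The LNGFR codes lay above all others, with G1 the highest, while FOXP3 and WT Treg codes overlapped. Ctsw fell in FOXP3 against LNGFR (log2 fold change -2.16 ± 0.33, edgeR adjusted p = 0.012) and in WT Treg against LNGFR (-2.03 ± 0.40, adjusted p = 0.024). FOXP3 and WT Treg differed by -0.13 ± 0.34 (adjusted p = 0.88).

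The call of Ctsw in FOXP3 cells was lost without LNGFR code G2 (adjusted p = 0.10) or G3 (0.068), with log2 fold changes of -2.09 and -2.18. In WT Treg it was lost without G2 (adjusted p = 0.12), G3 (0.085), G4 (0.082) or L1 (0.14), with only these 2 groups in the fit (0.11) and among codes that start with G (1.00, 1 WT Treg code against 3). Over all alternatives the log2 fold change against LNGFR stayed between -2.48 and -1.73 for FOXP3 and between -2.19 and -1.47 for WT Treg, and without codes E2, G1 and N3 both passed (-1.73, adjusted p = 0.00094, for FOXP3 and -1.47, 0.011, for WT Treg). In sorted bulk samples, fewer cells of a type and less RNA per cell cannot be told apart.

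Markers of natural killer and CD8 T cells (7 genes, 3 of them with enough reads to test) summed to 5.61 to 10.8 CPM in FOXP3, 27.0 to 57.9 CPM in WT Treg and 18.1 to 30.9 CPM in LNGFR. The markers did not move together. Cd8b1 had 401 counts in WT Treg and 192 in LNGFR, and Ncr1 had 24 and 3. Klrb1c had 14 and 47, Eomes had 8 and 109, and the rest had at most 9 in either group. None of the 3 tested markers was called in any comparison in edgeR (unadjusted p under 0.05 for 1 between FOXP3 and LNGFR, 2 between WT Treg and LNGFR and 1 between FOXP3 and WT Treg), and DESeq2 called 1 in each and limma voom 1, 2 and 1. None of the 7 summed to 0 in any group, but some had few counts and codes at 0, as Klra8 with 2 counts in LNGFR and Klre1 with 4 in FOXP3. Eomes, a transcription factor of such cells, averaged 0.612 CPM in FOXP3, 1.16 CPM in WT Treg and 6.98 CPM in LNGFR, and its LNGFR codes lay above all others, as those of Ctsw did, without a call (adjusted p = 0.053 for FOXP3 and 0.16 for WT Treg, each against LNGFR). The part of such cells in the level of Ctsw was not tested. The gene overlaps Fibp on the opposite strand by 9 bases, and Fibp did not pass in either comparison (log2 fold change -0.18 and -0.53).

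Ctsh, Ctsz and Ctss were high in the codes that also held the most B cell transcripts. Cathepsin H is mainly an aminopeptidase (gene at chr9:90054152-90076089, plus strand), and it stood at 35.5, 30.4, 23.7, 13.0 and 328 CPM in the FOXP3 codes, at 15.8, 16.5 and 8.52 CPM in the WT Treg codes, and at 228, 41.1 and 60.1 CPM in the LNGFR codes. The values of N3 and G1, 328 and 228 CPM, stood far above all others. All WT Treg codes were below all LNGFR codes, but no comparison passed: the log2 fold changes were -0.34 ± 0.93 between FOXP3 and LNGFR (adjusted p = 0.91), -3.04 ± 1.19 between WT Treg and LNGFR (0.27) and 2.7 ± 1.11 between FOXP3 and WT Treg (0.24, and 1.04 without codes E2, G1 and N3). Without N3 the difference of FOXP3 from LNGFR was -2.11 (adjusted p = 0.082), and without G1 it was 0.76, so single codes set its sign and size. WT Treg against LNGFR passed without N3 (-3.05, adjusted p = 0.032) and with E2 and G1 left out as well (-2.03, adjusted p = 0.026). With no filter on low counts, edgeR called WT Treg against LNGFR (-2.9, adjusted p = 8.8e-06) and FOXP3 against WT Treg (2.91, 8.6e-07). That fit called 1000 and 3615 of 46911 genes in these comparisons.

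Ctsz, cathepsin Z, a carboxypeptidase encoded at chr2:174427493-174439039 on the minus strand, stood at 237, 209, 224, 192 and 460 CPM in the FOXP3 codes, at 65.8, 190 and 182 CPM in the WT Treg codes, and at 474, 167 and 231 CPM in the LNGFR codes. FOXP3 codes were all above the WT Treg codes, though N2 only just exceeded G4, and the highest values were those of G1 and N3. The log2 fold changes were -0.14 ± 0.44 between FOXP3 and LNGFR (adjusted p = 0.93), -0.98 ± 0.50 between WT Treg and LNGFR (0.38) and 0.84 ± 0.46 between FOXP3 and WT Treg (0.39). None passed. With E2, G1 and N3 left out the values became 0.11, -0.10 and 0.21 in that order of comparisons, again without passing.

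Ctss, the invariant-chain protease cathepsin S, lies at chr3:95526786-95556403 on the plus strand. It stood at 451, 382, 352, 345 and 559 CPM in the FOXP3 codes, at 101, 466 and 381 CPM in the WT Treg codes, and at 692, 347 and 302 CPM in the LNGFR codes. All groups overlapped, the highest codes were again G1 and N3, and E2 was the lowest. The log2 fold changes were -0.10 ± 0.44 between FOXP3 and LNGFR (adjusted p = 0.95), -0.49 ± 0.49 between WT Treg and LNGFR (0.67) and 0.39 ± 0.45 between FOXP3 and WT Treg (0.70). All 3 turned sign without E2, G1 and N3, to 0.23, 0.39 and -0.15, and none passed.

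Genes of class II antigen presentation (11 genes), which B cells express strongly, summed to 20586 CPM in N3 and 10092 CPM in G1, against 1292 to 2511 CPM in the other FOXP3 codes, 496 to 1158 CPM in WT Treg and 2234 to 2295 CPM in the other LNGFR codes. Myeloid and dendritic cell markers (15 genes) also had their highest sum in N3, at 254 CPM, against 30.3 to 46.9 CPM in the other FOXP3 codes, 52.1 to 89.8 CPM in WT Treg and 42.7 to 73.6 CPM in LNGFR. Most of the sum in N3 came from a single marker, Cybb, at 217 CPM, so it does not show a rise of the list as a whole. The part of these transcripts in the levels of Ctsh, Ctsz and Ctss was not tested. Ctse did not follow them: N3 with 51.1 CPM and G1 with 36.3 CPM were within the range of codes with few B cell transcripts.

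**Figure D2:**
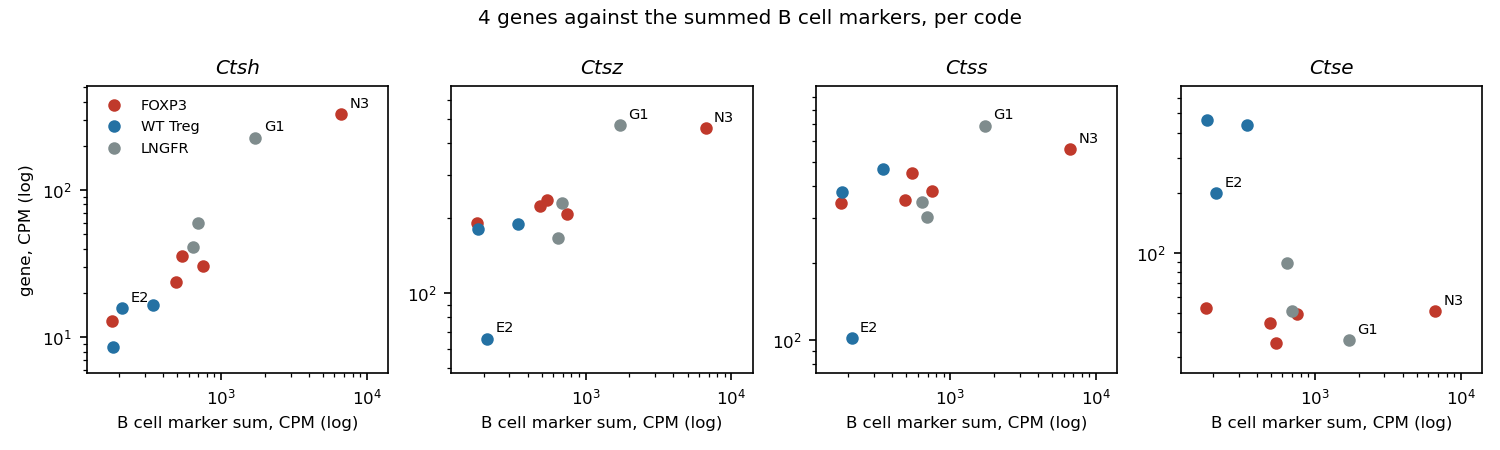
Level of Ctsh, Ctsz, Ctss and Ctse against the summed level of 10 B cell markers, both in CPM on log axes, 1 point per code (FOXP3 red, n = 5; WT Treg blue, n = 3; LNGFR grey, n = 3). Codes N3 and G1 are at the upper right for Ctsh, Ctsz and Ctss, at 328 and 228 CPM for Ctsh. For Ctse, N3 at 51.1 CPM is in the middle of the codes and G1 at 36.3 CPM is near the bottom.

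Ctsb, Ctsc and Ctsl passed in no comparison. Cathepsin B, a broad lysosomal protease encoded at chr14:63122462-63145923 on the plus strand, stood at 656, 641, 623, 601 and 432 CPM in the FOXP3 codes, at 209, 627 and 527 CPM in the WT Treg codes, and at 257, 560 and 672 CPM in the LNGFR codes. The 3 groups overlapped, with E2 and G1 as the lowest codes and N3 as the next. Ctsb overlaps Fdft1 on the opposite strand by 774 bases, and Fdft1 was not called in any comparison. The log2 fold changes of Ctsb were 0.25 ± 0.40 between FOXP3 and LNGFR (adjusted p = 0.84), -0.12 ± 0.44 between WT Treg and LNGFR (0.93) and 0.37 ± 0.40 between FOXP3 and WT Treg (0.68).

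Ctsc, the dipeptidyl peptidase that activates granzymes, lies at chr7:88278085-88310888 on the plus strand. It stood at 240, 201, 177, 197 and 175 CPM in the FOXP3 codes, at 92.1, 161 and 140 CPM in the WT Treg codes, and at 57.5, 186 and 219 CPM in the LNGFR codes. FOXP3 codes were all above WT Treg codes, yet the difference did not pass (0.59 ± 0.38, adjusted p = 0.49). Against LNGFR, the log2 fold change was 0.36 ± 0.38 for FOXP3 (adjusted p = 0.76) and -0.22 ± 0.42 for WT Treg (0.85).

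Ctsl, the lysosomal cysteine protease cathepsin L, was scarce. Its gene lies at chr13:64359337-64370890 on the minus strand. It stood at 2.08 to 5.64 CPM in FOXP3 with a median of 2.80, at 9.21, 2.43 and 3.60 CPM in the WT Treg codes, and at 16.1, 4.80 and 1.68 CPM in the LNGFR codes. The highest values came from G1 and E2, the codes with the fewest counts in all, and the group sums were 152 counts in FOXP3, 49 in WT Treg and 92 in LNGFR. The log2 fold changes were -1.16 ± 0.65 between FOXP3 and LNGFR (adjusted p = 0.60), -0.71 ± 0.79 between WT Treg and LNGFR (0.71) and -0.46 ± 0.70 between FOXP3 and WT Treg (0.79). With E2, G1 and N3 left out, the values became -0.0033, -0.07 and 0.07, and none passed.

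The comparison of FOXP3 with LNGFR sets scurfy CD4+ T cells with the human FOXP3 vector beside those with LNGFR alone. FOXP3 codes start with F or N and LNGFR codes with G, so the vector and whatever the letter means cannot be told apart. Here 1 of 10 members was called lower (Ctsw) and 0 higher at an adjusted p under 0.05 in edgeR. Of all tested genes 0.375% were called lower and 0.168% higher, 0.543% in either direction. With no adjustment, 2 members were under 0.05, Ctsw and Lgmn, as were 10.3% of all tested genes. DESeq2 and limma voom each called these 2 members, and 2.61% (DESeq2) and 6.68% (limma voom) of all tested genes. All FOXP3 codes were above all LNGFR codes for 1 member, Lgmn (4.35% of all tested genes), and below them for 1 member, Ctsw (4.67%). The median log2 fold change was -0.24 over the 10 members (0.0018 without codes E2, G1 and N3) and -0.02 over all tested genes.

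The comparison of WT Treg with LNGFR sets wild-type regulatory T cells beside scurfy CD4+ T cells from the same transfer. Of the 9 members other than Ctse, edgeR called 1 lower (Ctsw) and 0 higher, and 1.3% of all tested genes were called (0.673% lower, 0.627% higher). Before adjustment 3 of the 9 were under 0.05 (14.8% of all tested genes): Ctsd, Ctsh and Ctsw, the same 3 whose WT Treg codes were all below the LNGFR codes (8.82% of all tested genes), and 0 were wholly above them (7.8%). DESeq2 and limma voom each called 2 of the 9, Ctsd and Ctsw, beside 4.86% (DESeq2) and 5.63% (limma voom) of all tested genes. The 9 log2 fold changes had a median of -0.71 (-0.42 without codes E2, G1 and N3), against 0.08 over all tested genes. The family was chosen through this contrast.

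In the comparison of FOXP3 with WT Treg, 0 of the 9 members other than Ctse were called in edgeR, and 0.259% of all tested genes were. At an unadjusted p under 0.05 there were 2, Ctsh and Lgmn, beside 16.5% of all tested genes. DESeq2 and limma voom each called 1, Lgmn, beside 7.19% (DESeq2) and 6.78% (limma voom) of all tested genes. All FOXP3 codes were above all WT Treg codes for 4 members, Ctsc, Ctsd, Ctsz and Lgmn (6.12% of all tested genes), and below them for 0 (6.25%). The median log2 fold change of the 9 was 0.59 (0.21 without codes E2, G1 and N3), against 0.01 over all tested genes. E2, the code with the lowest sum of members, is 1 of 3 WT Treg codes in both of these comparisons.

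**Figure D3:**
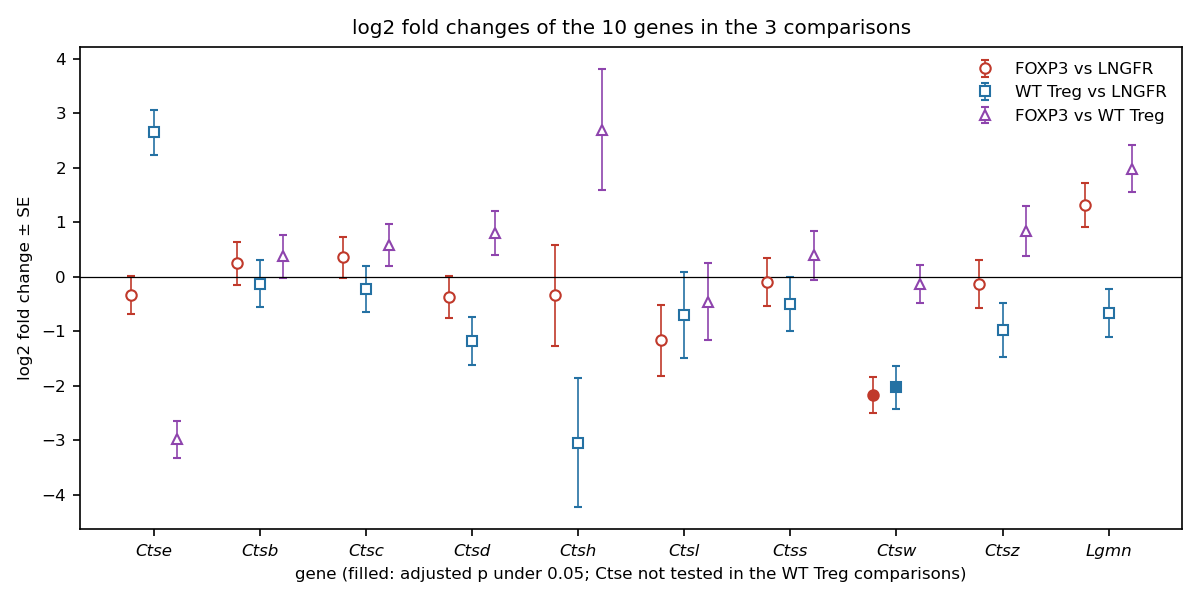
The log2 fold change ± SE of each of the 10 genes from the edgeR fit of 11 codes, with FOXP3 against LNGFR as red circles, WT Treg against LNGFR as blue squares and FOXP3 against WT Treg as purple triangles; filled symbols passed an adjusted p under 0.05. Only Ctsw is filled, at -2.16 and -2.03, and Ctse is shown without a test in both comparisons with WT Treg.

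Set against each other per kilobase of merged exons, Ctss was the most abundant member in all 3 groups and Ctsl the least. In FOXP3 the order of mean levels was Ctss (308 CPM per kb), Ctsz (184), Ctsd (140), Lgmn (129), Ctsb (97.6), Ctsc (34.1), Ctsh (19.1), Ctsw (18.0), Ctse (14.7) and Ctsl (0.507). In WT Treg it was Ctss (233), Ctse (116), Ctsz (101), Ctsd (79.4), Ctsb (75.1), Lgmn (31.8), Ctsc (22.6), Ctsw (19.2), Ctsh (3.02) and Ctsl (0.783). In LNGFR it was Ctss (329), Ctsz (202), Ctsd (180.0), Ctsb (82.0), Ctsw (80.5), Lgmn (51.5), Ctsc (26.5), Ctsh (24.4), Ctse (18.5) and Ctsl (1.16). Ctse thus ranked 9th in FOXP3, 2nd in WT Treg and 9th in LNGFR. In WT Treg its range of 62.7 to 146 CPM per kb overlapped those of Ctss (74.6 to 343), Ctsz (45.7 to 132) and Ctsd (32.5 to 103), with E2 the lowest code for each. Within each WT Treg code Ctse lay below Ctss and above Ctsz and Ctsd, narrowly above Ctsz in G4. In FOXP3 the ranges of Ctse (11.1 to 16.7) and Ctsw (13.2 to 29.7) overlapped, as did those of Ctsz (133 to 320), Ctsd (107 to 159) and Lgmn (96.9 to 172). With the length of the longest transcript in place of merged exons, Ctse ranked 8th in FOXP3, 2nd in WT Treg and 9th in LNGFR.

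The genes whose log2 CPM followed Ctse most closely over the 11 codes were Phc3 (Pearson r = 0.97), the gene model Gm42742 (0.96), Rhoh (0.93), Dbp (0.93), Il6st (0.93), Slc5a3 (0.92), Ppm1l (0.92) and Ift80 (0.91). The codes fall into 3 groups, so r reflects differences between groups as well as within them. The size of these differences varied: the log2 fold change of WT Treg against LNGFR was 0.54 for Phc3, a Polycomb protein, 1.46 for Il6st, the gp130 receptor chain of the IL-6 family, and 3.17 for Ppm1l, a protein phosphatase. Il6st averaged 17.1 ± 2.07 CPM in FOXP3, 59.9 ± 6.34 CPM in WT Treg and 21.7 ± 10.5 CPM in LNGFR (SD, n = 5, 3 and 3). Ppm1l averaged 6.20 ± 3.22 CPM in FOXP3, 49.3 ± 27.1 CPM in WT Treg and 5.67 ± 0.649 CPM in LNGFR. None of the other 9 members had a positive r with Ctse, and their r ran from -0.59 for Ctsh to -0.07 for Ctsl.

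Ctse lies 6.387 Mb below the lower coordinate of Ptprc on chromosome 1, and Ptprc carries the CD45.1 allele by which WT Treg were sorted. WT Treg differ from the other groups in donor as well as in cell type, and for genes linked to Ptprc these cannot be told apart in this design. Leaving Ctse out, 119 tested genes, Ptprc itself among them, start within 10 Mb of Ptprc. In FOXP3 against LNGFR, both of scurfy origin, 0 of the 119 were called in edgeR (0.543% of all tested genes), 13 were under 0.05 before adjustment (10.9%, against 10.3% of all), and DESeq2 called 3 (2.52%, against 2.61%) and limma voom 8 (6.72%, against 6.68%). In WT Treg against LNGFR 5 were called in edgeR, or 4.2%, against 1.3% of all tested genes. There, 20 were under 0.05 before adjustment (16.8%, against 14.8% of all), and DESeq2 called 12 (10.1%, against 4.86%) and limma voom 17 (14.3%, against 5.63%). In FOXP3 against WT Treg 2 were called in edgeR, or 1.68%, against 0.259%. There, 23 were under 0.05 before adjustment (19.3%, against 16.5% of all), and DESeq2 called 9 (7.56%, against 7.19%) and limma voom 15 (12.6%, against 6.78%). Without codes E2, G1 and N3 the shares were 12.6% near Ptprc and 10.7% overall between FOXP3 and LNGFR, 14.4% and 7.66% between WT Treg and LNGFR, and 13.5% and 7.42% between FOXP3 and WT Treg.

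Of the 5 genes called near Ptprc in WT Treg against LNGFR, Ptprv (log2 fold change 2.40 ± 0.37, adjusted p = 0.0064) and Cxcr4, a chemokine receptor (1.85 ± 0.38, 0.032), were higher, as Ctse was. Il10, the cytokine interleukin-10 (-3.02 ± 0.48, 0.0078), Yod1, a deubiquitinase (-2.04 ± 0.34, 0.0098), and Rgs1, a regulator of G protein signalling (-1.96 ± 0.40, 0.028), were lower. Yod1 (2.15 ± 0.32, adjusted p = 0.015) and Cxcr4 (-2.10 ± 0.32, 0.017) were also called in FOXP3 against WT Treg. Each of these calls was lost when at least 1 single code was left out, with adjusted p up to 0.27 (Rgs1 without G2) in WT Treg against LNGFR and up to 0.056 (both genes without L1) in FOXP3 against WT Treg. Ptprc itself, a pan-leukocyte phosphatase, averaged 1446 ± 136 CPM in FOXP3, 1215 ± 482 CPM in WT Treg and 1153 ± 312 CPM in LNGFR.

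**Figure D4:**
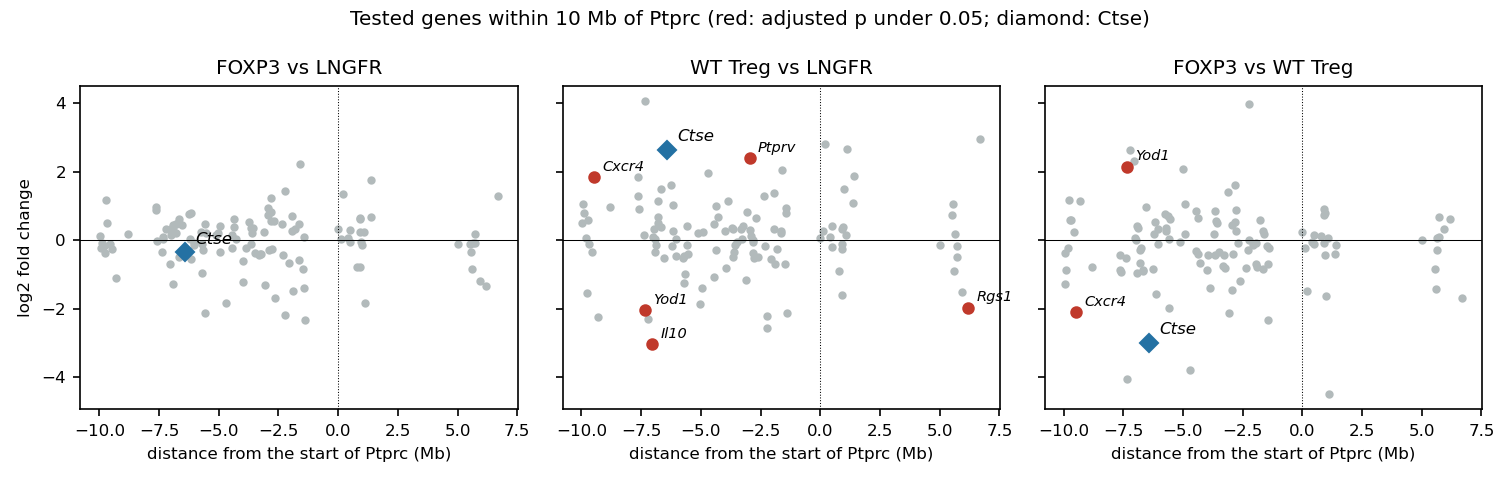
Log2 fold change of the tested genes within 10 Mb of Ptprc against the distance in Mb of each gene's lower coordinate from that of Ptprc, 1 panel per comparison; red points passed an adjusted p under 0.05 in edgeR and the blue diamond is Ctse, shown without a test. Called genes are 0 in FOXP3 against LNGFR, 5 in WT Treg against LNGFR and 2 in FOXP3 against WT Treg, and they point both up and down.

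Among the partners of these enzymes, Cpq, Serpinb6a and Nkg7 were called in edgeR with all codes. Without codes E2, G1 and N3 edgeR called 10.7% of all genes between FOXP3 and LNGFR, 7.66% between WT Treg and LNGFR and 7.42% between FOXP3 and WT Treg, and counts below are given in the same order of comparisons. With all codes edgeR called 0.543%, 1.3% and 0.259% of all tested genes. DESeq2 called 2.61%, 4.86% and 7.19%, and limma voom 6.68%, 5.63% and 6.78%. An unadjusted p under 0.05 was found for 10.3%, 14.8% and 16.5%. The lists described here were drawn up with earlier results of these data known. Cpq, a lysosomal dipeptidase, averaged 8.83 ± 1.60 CPM in FOXP3, 47.9 ± 7.37 CPM in WT Treg and 7.92 ± 1.62 CPM in LNGFR, and its WT Treg codes were all above the others. It rose in WT Treg against LNGFR (log2 fold change 2.57 ± 0.29, edgeR adjusted p = 0.00078) and fell in FOXP3 against WT Treg (-2.43 ± 0.24, adjusted p = 0.00080), and both calls held with each single code left out, the first not among codes that start with G (2.63, adjusted p = 0.27, 1 WT Treg code against 3). Of the 10 tested among 12 other lysosomal proteases edgeR called only Cpq. In the 3 comparisons DESeq2 called 2, 1 and 4 of the 10, limma voom 3, 1 and 4, and edgeR without codes E2, G1 and N3 called 2, 2 and 4. Scpep1, a serine carboxypeptidase, averaged 102 ± 11.3 CPM in FOXP3, 37.9 ± 24.8 CPM in WT Treg and 27.0 ± 8.28 CPM in LNGFR without passing in edgeR with all codes (FOXP3 against LNGFR 1.90 ± 0.42, adjusted p = 0.071). Ctsf, cathepsin F, averaged 3.71 CPM in FOXP3, 8.0 CPM in WT Treg and 9.67 CPM in LNGFR, also without passing in edgeR (-1.38 ± 0.39, adjusted p = 0.16). The median log2 fold change of the 10 was 0.14 between FOXP3 and LNGFR, -0.29 between WT Treg and LNGFR and 0.42 between FOXP3 and WT Treg.

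Of 12 inhibitors of cathepsins or granule proteases, 8 were tested and edgeR called 1. DESeq2 and limma voom called 1 in each comparison, and edgeR without codes E2, G1 and N3 called 1, 3 and 1. Serpinb6a, an intracellular serpin, averaged 61.2 ± 3.75 CPM in FOXP3, 36.8 ± 5.00 CPM in WT Treg and 190 ± 39.8 CPM in LNGFR. Both other groups lay wholly below LNGFR. It fell in FOXP3 against LNGFR (-1.63 ± 0.22, adjusted p = 0.0058) and in WT Treg against LNGFR (-2.36 ± 0.27, adjusted p = 0.00080). The first call was lost without LNGFR code G2 (adjusted p = 0.10) or G3 (0.10), without WT Treg code L1 (0.0593) and with no filter on low counts (0.071). The second was lost among codes that start with G (-2.16, 0.97). The gene has close paralogs and overlaps Nqo2 on the opposite strand, which was also lower in WT Treg against LNGFR (-1.57, adjusted p = 0.0084). As the strand setting is not given in the sources used here, reads of both genes may be mixed. In the inhibitor list the median was -0.42 between FOXP3 and LNGFR, -0.77 between WT Treg and LNGFR and 0.23 between FOXP3 and WT Treg.

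Of the 8 granule proteases and related genes, whose granzymes cathepsin C activates, all 8 were tested and Nkg7, a protein of cytotoxic granules, was called by edgeR in WT Treg against LNGFR, with 0 calls in the other comparisons. DESeq2 called 0, 2 and 2 of the 8, limma voom 0, 2 and 1, and edgeR without codes E2, G1 and N3 called 0, 1 and 1. At an unadjusted p under 0.05 there were 2, 3 and 3. Nkg7 averaged 169 ± 30.9 CPM in FOXP3, 43.3 ± 25.5 CPM in WT Treg and 243 ± 182 CPM in LNGFR (WT Treg against LNGFR -2.43 ± 0.55, adjusted p = 0.049). That call was lost in 10 of 11 fits that left out a single code, with adjusted p up to 0.18, and the log2 fold change was -1.61 without G1 and -1.27 without E2, G1 and N3 (adjusted p = 0.0028). Gzma, granzyme A, averaged 38.1 ± 28.0 CPM in FOXP3, 16.8 ± 18.9 CPM in WT Treg and 140 ± 86.7 CPM in LNGFR, without a call in edgeR in any comparison. Prf1, perforin, averaged 16.2 ± 5.43 CPM in FOXP3, 6.24 ± 3.19 CPM in WT Treg and 8.92 ± 2.34 CPM in LNGFR, also without a call in edgeR. The list's median log2 fold change was -0.27 between FOXP3 and LNGFR, -0.82 between WT Treg and LNGFR and 1.13 between FOXP3 and WT Treg.

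Other lysosome genes were not called in edgeR with all codes. Of 23 tested lysosome genes (24 listed) and 9 tested genes for sorting of lysosomal enzymes (10 listed), 0 were called in any of the 3 comparisons in edgeR. At an unadjusted p under 0.05 there were 2 lysosome genes in each comparison (8.7% of those tested) and 1 to 3 sorting genes (11.1% to 33.3%). DESeq2 called 0 of either list in each comparison, and limma voom called 0 to 2 lysosome genes and 1 sorting gene. Without codes E2, G1 and N3 edgeR called 4, 2 and 4 lysosome genes and 2, 1 and 0 sorting genes. The lysosome list had a median log2 fold change of 0.25 between FOXP3 and LNGFR, 0.07 between WT Treg and LNGFR and 0.30 between FOXP3 and WT Treg. The sorting list had medians of 0.17 between FOXP3 and LNGFR, -0.03 between WT Treg and LNGFR and 0.20 between FOXP3 and WT Treg. Lamp1, a lysosomal membrane protein, averaged 28.5 ± 5.93 CPM in FOXP3, 63.9 ± 36.3 CPM in WT Treg and 48.1 ± 28.8 CPM in LNGFR. Igf2r, the receptor that carries precursors of cathepsins to the lysosome, averaged 32.0 ± 9.60 CPM in FOXP3, 55.4 ± 9.0 CPM in WT Treg and 27.4 ± 10.3 CPM in LNGFR (WT Treg against LNGFR 1.01 ± 0.34, adjusted p = 0.21). Of the 11 genes of class II antigen presentation, all tested, 0 were called in any comparison by edgeR or DESeq2, with medians of 0.08 between FOXP3 and LNGFR, -2.05 between WT Treg and LNGFR and 2.29 between FOXP3 and WT Treg. Their unadjusted p was under 0.05 for 0 genes between FOXP3 and LNGFR. It was so for 7 between WT Treg and LNGFR (63.6%, against 14.8% of all tested genes). Between FOXP3 and WT Treg it was so for 8 (72.7%, against 16.5%). In the 3 comparisons limma voom called 0, 2 and 4, and edgeR without codes E2, G1 and N3 called 1, 5 and 3. Of the tested markers of T cells (7), B cells (10), plasma cells (5 of 6 listed), myeloid and dendritic cells (10 of 15) and erythroid cells (1 of 7), 0 of 33 were called in any comparison in edgeR. At an unadjusted p under 0.05 there were 2 between FOXP3 and LNGFR, 9 between WT Treg and LNGFR and 15 between FOXP3 and WT Treg, against 10.3%, 14.8% and 16.5% of all tested genes, and all 10 B cell markers were among the 15. These counts are 6.06%, 27.3% and 45.5% of the 33. DESeq2 called 0, 4 and 4 and limma voom 2, 4 and 3 in these comparisons. Plasma cell markers summed to 3.84 to 289 CPM in FOXP3, 12.6 to 154 CPM in WT Treg and 147 to 575 CPM in LNGFR. Erythroid markers summed to 2.51 to 3.59 CPM in FOXP3, 2.66 to 6.58 CPM in WT Treg and 2.35 to 4.16 CPM in LNGFR, with 2, 3 and 2 of the 7 at 0 in FOXP3, WT Treg and LNGFR.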

How the data were processed

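RNA from 22 Smart-seq libraries was read in pairs of 38 bp after 18 cycles of PCR. The authors deposited raw counts of reads for each gene symbol and library, whole numbers with unequal totals. The submitters' processing notes name STAR 2.7.3a, Subread 2.0.0, featureCounts and the build mm10 (GRCm38). Annotation, strand setting and treatment of multi-mapping reads: not given in the sources used here. Library totals ran from 332570 to 5453375 counts. Without molecular identifiers, a count can include PCR copies of 1 molecule. In the table, 52830 symbols matched 1 gene of GENCODE M21.

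The members, gene lists and tests were chosen with earlier results of these data known. The 2 libraries of a code were summed. All 11 codes entered 1 fit of the edgeR 4.0.16 quasi-likelihood test in R 4.3.3 (robust, TMM, filterByExpr), with Benjamini-Hochberg adjustment over 15462 genes and a threshold of 0.05. The procedure was tested on simulated counts. These gave a gene the same mean level in all codes of a group, so they cannot show how outlying codes affect the calls. Each code's CPM scales its counts to 1e6 of the TMM-scaled total, and means have the SD over codes. SE is the absolute log2 fold change divided by the square root of F. Likeness to Ctse used log2 CPM with a prior count of 2.

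Named genes were the 10 members, the called genes of each of 12 lists (at most 4 by smallest p, or 2 where none was called, of which the text gives some), the 8 genes most like Ctse, called genes near Ptprc (at most 6 per comparison), Foxp3 and Ptprc. Fibp and Nqo2 were named for their overlap with named genes. Alternatives were RLE scaling, no filter, DESeq2 1.42.0, limma 3.58.1 voom with quality weights, only the 2 groups compared, each code left out, the 3 weak libraries (both of E2, the second of G1) left out, codes E2, G1 and N3 left out, the first library of each code, repeat gene models left out, and codes that start with G. Per-length levels were also computed with the longest transcript. Protein sequences and the vector's transcript were not analysed here.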

Additional observations from a re-analysis of the deposited data

Results flagged for a closer look

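Within the 5 FOXP3 codes, 4 of the 10 members had a code that stood apart from its nearest neighbour by more than 0.71 of the whole range, the 95% limit of Dixon's test for 5 values. Chance alone passes this limit in about 1 of 20 such groups, and the members share codes, so the 4 are not independent. Code N3 held 3 of them: it was the highest for Ctsh at 327.8 CPM and for Ctsz at 460.4 CPM, and the lowest for Ctsb at 431.6 CPM. In N3 the summed B cell markers were also the highest of all codes, at 6669 CPM. Code F2 was the highest for Ctsw, at 56.05 CPM, still below the lowest LNGFR code at 119 CPM.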

How the results depend on the processing

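The number of members called in FOXP3 against LNGFR, 1 in the reported test, was 2 with DESeq2, 2 with limma voom, 3 without codes E2, G1 and N3, and 0 to 1 with single codes left out (0 without G2 and without G3). Of the 9 members other than Ctse, 1 was called in WT Treg against LNGFR, and the count was 2 with no filter, DESeq2 and limma voom, 3 without E2, G1 and N3, 0 with only these groups in the fit, 0 among codes that start with G, and 0 to 2 with single codes left out (0 without G2, G3, G4 or L1, 2 without N3). For FOXP3 against WT Treg it was 0, and became 1 with RLE scaling, DESeq2, limma voom, only these groups or the first library of each code, 2 with no filter and without E2, G1 and N3, and 0 to 1 with single codes left out (1 without G1). Of all tested genes, FOXP3 against LNGFR called 0.543% in the reported test. It called 2.61% with DESeq2, 6.68% with limma voom and 10.7% without E2, G1 and N3. In the same order, WT Treg against LNGFR called 1.3%, 4.86%, 5.63% and 7.66%. FOXP3 against WT Treg called 0.259%, 7.19%, 6.78% and 7.42%. With no filter, 329, 1000 and 3615 of 46911 genes were called in these comparisons. Ctse in the comparisons with WT Treg was given without a test, so only its direction was judged here. Of 610 member log2 fold changes under alternatives, 542 kept their direction and, where tested, their side of the threshold. A further 20 newly passed, 8 no longer passed and 40 turned sign, all 40 uncalled. Between FOXP3 and LNGFR these were, with no filter, Ctsh 0.0084, Ctss 0.16 and Ctsz 0.134, with limma voom Ctss 0.187 and Ctsz 0.157, and without E2, G1 and N3 Ctss 0.231 and Ctsz 0.109. Between WT Treg and LNGFR they were Ctsb 0.147 without the 3 weak libraries, Ctsl 0.141 and Ctss 0.0907 with limma voom, Ctss 0.385 without E2, G1 and N3, and Ctsb 0.324, Ctsc 0.0484 and Ctss 0.0655 among codes that start with G. Between FOXP3 and WT Treg they were Ctsl 0.111 and Ctss -0.0238 without the weak libraries, Ctsl 0.0678 and Ctss -0.154 without E2, G1 and N3, Ctsl 0.263 with first libraries and Ctsw 0.0433 with no filter. With single codes left out, values that turned ranged, between FOXP3 and LNGFR, over -0.582 to 0.226 (Ctse), -0.0593 to 0.601 (Ctsb), -0.0289 to 0.756 (Ctsc), -0.644 to 0.00031 (Ctsd), -2.11 to 0.76 (Ctsh), -1.51 to 0.0287 (Ctsl), -0.243 to 0.364 (Ctss) and -0.45 to 0.408 (Ctsz). Between WT Treg and LNGFR the ranges were -0.502 to 0.224 (Ctsb), -0.622 to 0.11 (Ctsc) and -1.23 to 0.475 (Ctsl), and between FOXP3 and WT Treg -0.768 to 0.117 (Ctsl), -0.0194 to 0.885 (Ctss) and -0.397 to 0.186 (Ctsw). Over all genes, the 84 calls between FOXP3 and LNGFR became 14 to 1565 under the alternatives, the 201 between WT Treg and LNGFR 0 to 1125, and the 40 between FOXP3 and WT Treg 4 to 3615. The cause of these shifts was not tested. No paired analysis was possible because the groups share no code. Fits that leave out a code rest on the spread of all groups.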
